A study of Mus musculus with 4 samples.

Results

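The SR proteins, the heterogeneous nuclear ribonucleoproteins (hnRNPs) and the kinases that phosphorylate SR proteins were followed in CD69+DP thymocytes, the CD4+CD8+ cells of the thymus that carry the activation marker CD69. Members were chosen with earlier results of these data known. The rule was the symbol: the numbered *Srsf*, *Srrm* and *Srpk* genes, *Tra2a* and *Tra2b*, all symbols that begin with *Hnrnp*, and *Clk1* to *Clk4*. This gave 45 of the 24421 genes listed, of which 18 were placed in the SR family, 20 in the hnRNP family and 7 in the kinase family. RNA was sequenced from 2 control and 2 Foxa1/2cKO samples, each sorted by FACS from the thymus of different C57BL/6 mice at 6 weeks of age. Both groups carried the Foxa1fl/fl and Foxa2fl/fl alleles. The Foxa1/2cKO mice in addition carried the CD4Cre transgene, in which the *Cd4* promoter drives Cre in the T lineage, and the controls were Cre-negative, so that Cre itself and the deletion cannot be told apart. The values are FPKM, reads scaled to the length of the gene and to a total for the sample.

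SR proteins bind exonic RNA through an RNA recognition motif and carry a domain rich in arginine and serine (the RS domain), through which they help to recruit the spliceosome. hnRNPs coat nascent RNA, and many of them repress the use of nearby exons or compete with SR proteins for binding. SRPK kinases phosphorylate RS domains mainly in the cytoplasm, which allows import of SR proteins into the nucleus, and CLK kinases add further phosphates in the nucleus and release SR proteins from nuclear speckles.

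To show the substrate that links the families, arginine-serine repeats were counted in the longest annotated coding sequence of each gene (GENCODE M21, mm10). Adjacent codons for arginine and serine, in either order, numbered 4.04 to 23.4 per 100 codons in 17 SR family genes, with a median of 14.1. In the 20 hnRNP genes they numbered 0.274 to 2.54, with a median of 0.992. The Clk genes held 1.87 to 4.19 pairs per 100 codons, and the Srpk genes 0.308 to 1.06. Among the Srsf genes *Srsf2* had the most and *Srsf9* the fewest. The windows of 20 codons richest in such pairs are printed 5′ to 3′ for 5 genes that span this range, with serine codons, the residues that SRPK and CLK kinases phosphorylate, in capitals. They begin at codon 127 of *Srsf2*, 183 of *Srsf4*, 42 of *Tra2a*, 182 of *Srsf9* and 112 of *Clk2*.
Srsf2: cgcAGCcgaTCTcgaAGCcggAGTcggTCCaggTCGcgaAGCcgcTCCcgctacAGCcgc
Srsf4: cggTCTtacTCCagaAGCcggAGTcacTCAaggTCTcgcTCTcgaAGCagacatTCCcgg
Tra2a: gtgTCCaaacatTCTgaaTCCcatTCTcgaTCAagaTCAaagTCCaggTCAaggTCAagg
Srsf9: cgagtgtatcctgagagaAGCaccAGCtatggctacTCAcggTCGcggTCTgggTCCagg
Clk2: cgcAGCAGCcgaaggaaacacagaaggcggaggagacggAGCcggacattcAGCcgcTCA
The window of *Srsf2* held 17 arginine-serine pairs, that of *Srsf4* 13, that of *Tra2a* 9, and those of *Srsf9* and *Clk2* 6 each.

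**Figure D1:**
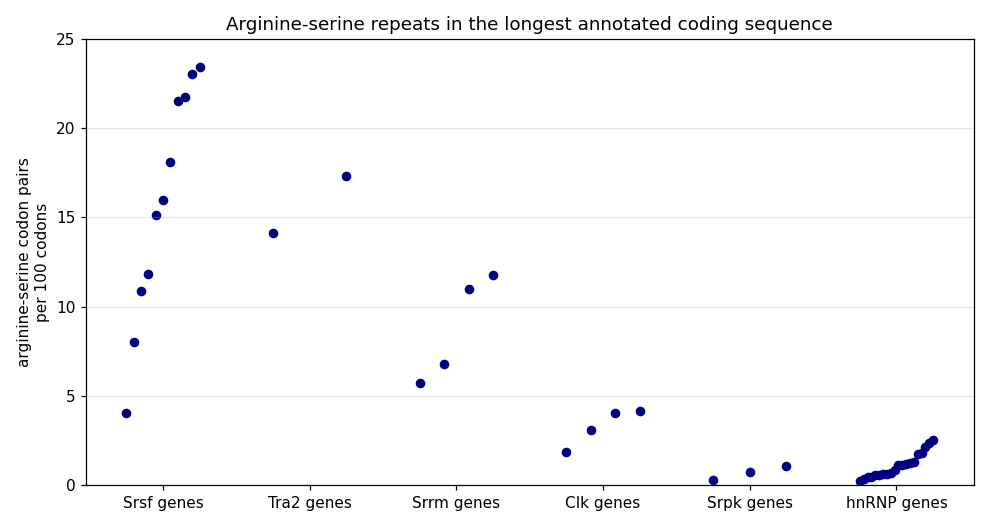
Adjacent arginine and serine codons per 100 codons (vertical axis) in the longest annotated coding sequence of each member; each point is 1 gene, grouped by subfamily. The Srsf genes spread from 4.04 to 23.4, while all 20 hnRNP genes lie at 2.54 or below.

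Many hnRNPs carry runs of glycine with arginine (RGG boxes). An arginine-glycine-glycine codon triplet occurred in 14 of 20 hnRNP genes, in 7 of 17 SR genes and in 2 of 7 kinase genes. Windows of 20 codons were scored by glycine codons plus arginine codons directly before glycine. The best window is printed 5′ to 3′ for *Hnrnpa2b1* and *Hnrnpa1*, the most abundant hnRNP gene and the one with the widest difference. Arginine codons are in capitals.
Hnrnpa2b1: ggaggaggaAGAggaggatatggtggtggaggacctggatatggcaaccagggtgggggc
Hnrnpa1: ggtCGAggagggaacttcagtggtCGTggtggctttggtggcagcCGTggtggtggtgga
The first begins at codon 263 and holds 14 glycine codons and 1 arginine codon, and the second begins at codon 217 and holds 12 glycine codons and 3 arginine codons.

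Depth was 14477908 and 13066995 recovered reads for the controls against 10393356 and 11259080 for Foxa1/2cKO. The totals that divide the FPKM were 14968316 and 13576813 for the controls, and 10796528 and 11093927 for Foxa1/2cKO. Only in Foxa1/2cKO 2 did this total lie below the recovered reads. Its FPKM are therefore higher, relative to the other samples, than scaling to recovered reads would give. *Foxa1* and *Foxa2* were listed at 0 in all 4 samples, so they do not check the genotypes. All 8 of the listed CD69+DP markers were present, with a summed FPKM of 2484 to 2527 in control and 2571 to 3235 in Foxa1/2cKO. These markers did not move alike. *Cd8b1*, which the study names as higher in Foxa1/2cKO, was at 592 and 613 in the controls against 668 and 974 in Foxa1/2cKO. *Cd3e* was at 396 and 396 in the controls against 333 and 396 in Foxa1/2cKO. The 3 listed B cell markers summed to 28.6 to 54.0 in control and 32.9 to 73.0 in Foxa1/2cKO, the 4 myeloid markers to 16.5 to 26.0 and 12.3 to 24.2, and the 4 thymic epithelial markers to 3.13 to 3.18 and 3.65 to 4.09. The 4 erythroid markers summed to under 0.1 in every sample, and 3 of them were listed at 0 throughout. The part of these cells in the results was not tested. The 2 Foxa1/2cKO samples differed more from each other than the 2 controls did: over the 42 members tested, the median absolute log2 difference was 0.128 between the Foxa1/2cKO samples and 0.0454 between the controls, and 33 of the 42 members (78.6%) were further apart in Foxa1/2cKO. Over all genes tested 76.5% were, with median absolute differences of 0.20 between the Foxa1/2cKO samples and 0.0762 between the controls.

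All 3 families were abundant in CD69+DP cells. The 18 SR family genes reached a summed FPKM of 1592 and 1608 in the controls, against 1501 and 1574 in Foxa1/2cKO. The 20 hnRNP genes reached 3143 and 3154 in the controls, against 3021 and 3118 in Foxa1/2cKO. For both families the 2 Foxa1/2cKO sums lay below the 2 control sums. The mean hnRNP sum was 3148 in control and 3070 in Foxa1/2cKO. *Hnrnpa2b1* alone had means of 462 and 393, so most of the difference in the hnRNP sum lay in this gene. The 7 kinase genes reached 371 and 364 in the controls, against 369 and 454 in Foxa1/2cKO, where the groups overlapped and Foxa1/2cKO 2 stood highest. In bulk samples, fewer cells of a type and less RNA per cell cannot be told apart.

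**Figure D2:**
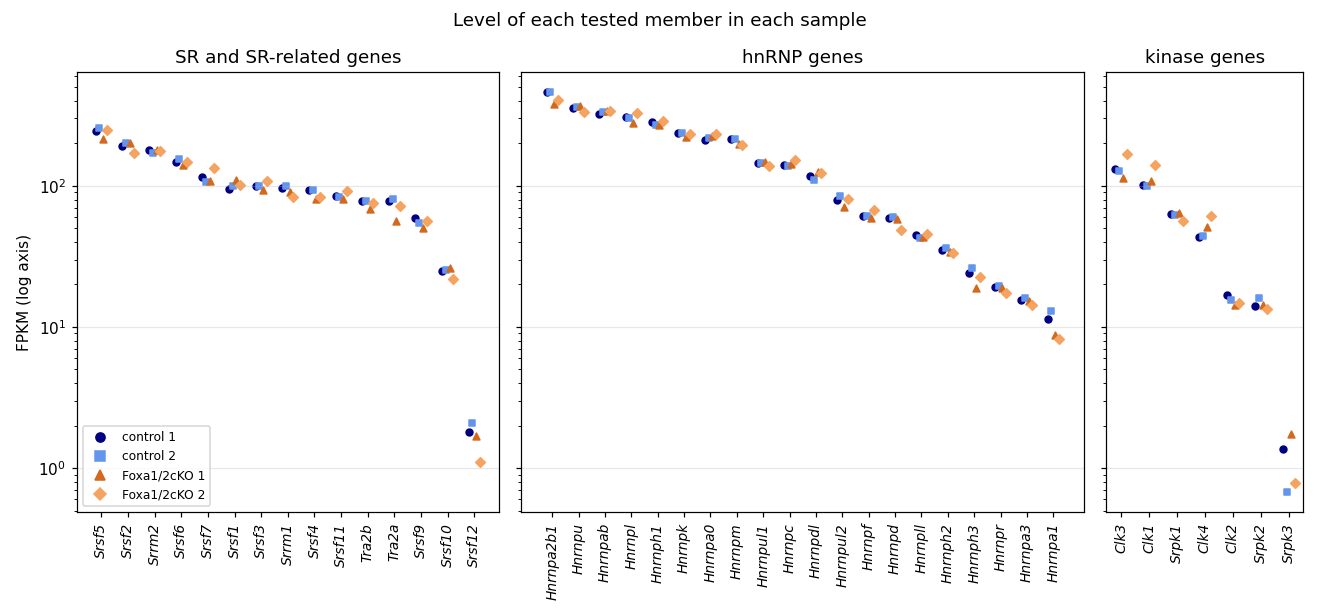
FPKM (log axis) of the 42 tested members in each of the 4 samples, in 3 panels for the SR, hnRNP and kinase families; each point is 1 sample. Levels run from 0.675 for *Srpk3* to 463 for *Hnrnpa2b1*, and the 4 samples of most genes lie close together on this scale. *Srpk3* (0.675 to 1.75) and *Srsf12* (1.10 to 2.08) are spread wider.

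Fold changes of Foxa1/2cKO against control were fitted with limma on log2(FPKM + 1) over the 10776 genes that reached an FPKM of 1 in 2 or more samples, 42 of the 45 members among them. None of the 42 members had an adjusted p under 0.05 (lowest adjusted p = 0.863, limma), while 0.00928% of all genes tested did. Without Foxa1/2cKO 1, a fit in which the lone sample left is assumed to vary like the controls, 8 members passed, among 2559 of all genes. An unadjusted p under 0.05 was reached by 2 members, *Hnrnpa1* and *Clk4*, against 4.55% of all genes. The 2 Foxa1/2cKO values exceeded both control values in 7 members (16.7%), where 18.9% of all genes did so, and stood under both in 16 members (38.1%), where 17.8% of all genes did so. The median log2 fold change of the 42 members was -0.07, against 0.01 over all genes tested, and 35 of the 42 had an absolute value under 0.2. Without Foxa1/2cKO 1 these medians were -0.041 and 0.022, and without Foxa1/2cKO 2 they were -0.053 and -0.0088. Of the 42, 16 had a positive and 26 a negative fitted value, while 51.3% of all genes had a positive one. A 2 against 2 exact permutation test cannot give a two-sided p below 0.3333. SE denotes the standard error of a fitted log2 fold change, and the range over left-out fits is that of the 4 fits that each omit 1 sample.

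**Figure D3:**
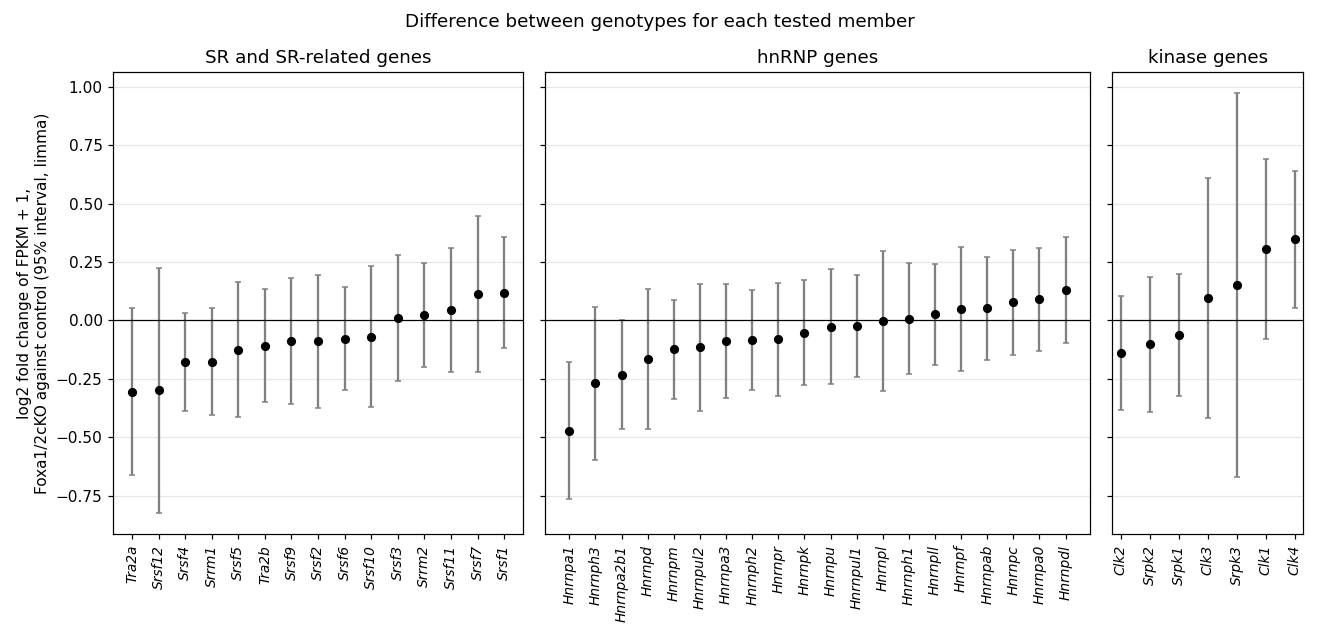
Log2 fold change of FPKM + 1, Foxa1/2cKO against control (vertical axis), for the 42 tested members, ordered within each family; points are limma estimates and bars their 95% intervals. Most points lie between -0.2 and 0.2, with *Hnrnpa1* lowest at -0.47 and *Clk4* highest at 0.35.

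The 15 tested SR family genes had a median log2 fold change of -0.09, with a range from -0.30 to 0.12; 5 had positive and 10 negative values, and 0 passed the test. The median was -0.032 without Foxa1/2cKO 1 and -0.053 without control 2. The Foxa1/2cKO pair stood above the controls in 1 of the 15 (6.67%, against 18.9% of all genes) and below them in 6 (40%, against 17.8%). *Srsf5* had the highest level per length, with an FPKM of 246 and 258 in the controls against 214 and 249 in Foxa1/2cKO. limma fitted this as a log2 fold change of -0.12 (SE 0.11), which was -0.017 without Foxa1/2cKO 1 and -0.23 without Foxa1/2cKO 2, and the samples of the 2 groups overlapped. *Srsf2* (SC35), a marker of nuclear speckles that is confined to the nucleus, had FPKM values of 192 and 202 in the controls against 200 and 172 in Foxa1/2cKO. Its fitted value of -0.09 on the log2 scale (SE 0.11) ran from -0.20 to 0.02 over left-out fits. *Srrm2*, a large scaffold protein of nuclear speckles, was at 181 and 170 in the controls and at 180 and 177 in Foxa1/2cKO, which limma fitted as a log2 fold change of 0.02. The groups of these 3 most abundant SR family genes overlapped in every case. Of the 50-base stretches of the longest *Srsf5* transcript, 27.8% are also held by the pseudogene *Gm12966*. For *Srsf2* 35.2% are held by other genes, mostly *Mettl23*, so these levels are less certain. Such sharing exceeded 20% in 10 of the 44 members with a coding sequence.

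*Srsf1* (SF2/ASF), the founding member of the family, was the SR gene with the largest positive value. Its FPKM was 94.7 and 99.5 in the controls against 110 and 101 in Foxa1/2cKO, with both Foxa1/2cKO samples above both controls. This gave a log2 fold change of 0.12 (SE 0.09, 95% interval -0.12 to 0.36), and 0.060 without Foxa1/2cKO 1. *Srsf7*, which carries a zinc knuckle beside its RNA recognition motif, was at 115 and 107 in the controls and at 109 and 133 in Foxa1/2cKO. For *Srsf7* the fitted log2 fold change was 0.11 (SE 0.13), and it was -0.03 without Foxa1/2cKO 2. *Srsf11*, an SR-related protein, was at 84.6 and 83.1 in the controls and at 80.7 and 92.6 in Foxa1/2cKO, which gave a fitted log2 fold change of 0.04 (SE 0.10). In *Srsf7* and *Srsf11* it was Foxa1/2cKO 2 that stood above the other 3 samples.

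The most negative values of the family belonged to *Tra2a*, *Srsf12* and *Srsf4*. *Tra2a* (chr6:49243924-49264033, minus strand), which encodes a sequence-specific activator of exon inclusion with an RS domain at each end, had FPKM values of 77.7 and 80.1 in the controls against 56.5 and 71.8 in Foxa1/2cKO. The means were 78.9 ± 1.64 (SD, n = 2) and 64.1 ± 10.8 (SD, n = 2), and the fitted log2 fold change was -0.30 (SE 0.14, 95% interval -0.66 to 0.05). The groups did not overlap, but without Foxa1/2cKO 1 the value was -0.13 and without Foxa1/2cKO 2 it was -0.47. Its paralogue *Tra2b* was at 77.98 and 77.5 in the controls and at 68.3 and 75.996 in Foxa1/2cKO, likewise lower in both. The ratio of *Tra2a* to *Tra2b*, a pair chosen after the values were seen, was 0.997 and 1.03 in the controls against 0.827 and 0.945 in Foxa1/2cKO.

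*Srsf4* (SRp75; chr4:131873617-131901706, plus strand), the Srsf protein with a long RS domain, was at 92.7 and 93.6 in the controls and at 80.6 and 83.9 in Foxa1/2cKO. Its means were 93.2 ± 0.575 (SD, n = 2) and 82.3 ± 2.32 (SD, n = 2), which corresponded to a log2 fold change of -0.18 (SE 0.08, 95% interval -0.39 to 0.03) that kept to -0.21 to -0.15 over left-out fits. The gap between the groups was several times either SD, yet it did not pass the test over all genes. Of its 50-base stretches, 65.4% are also held by the annotated transcript *Gm12992*, on either strand. The related *Srsf6* (SRp55) was at 148 and 155 in the controls and at 141 and 147 in Foxa1/2cKO. The ratio of *Srsf4* to *Srsf6*, chosen after the values were seen, was 0.625 and 0.602 in the controls against 0.572 in both Foxa1/2cKO samples.

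The other SR genes that passed the filter ran from *Srsf3* and *Srrm1*, near *Srsf1* in level, down to *Srsf12*. *Srrm1*, a coactivator that bridges SR proteins on the exon and the spliceosome, was at 96.8 and 99.9 in the controls and at 90.3 and 83.7 in Foxa1/2cKO, the latter both lower. *Srsf3*, the smallest SR protein, was at 99.3 and 100.03 in the controls and at 93.5 and 108 in Foxa1/2cKO. *Srsf9*, which has a short RS domain, was at 59.4 and 54.8 in the controls and at 50.5 and 56.8 in Foxa1/2cKO. *Srsf10*, which acts as a repressor when dephosphorylated, was at 24.8 and 25.3 in the controls and at 26.0 and 21.8 in Foxa1/2cKO. In these last 3 genes the groups overlapped. *Srsf12* was near the limit of the filter, at 1.80 and 2.08 in the controls against 1.70 and 1.10 in Foxa1/2cKO. It rested on 36 to 83 reads a sample, and its fitted log2 fold change was -0.30 (SE 0.20), with -0.12 without Foxa1/2cKO 2 and -0.48 without Foxa1/2cKO 1.

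The members below the filter all belonged to the Srrm group. *Srrm3* and *Srrm4*, splicing regulators of neurons, were listed at 0 in all 4 samples. A count of 0 allows up to 3 reads, which at these depths and for counting error alone is an FPKM of up to 0.0510 to 0.0707 in *Srrm3* and up to 0.0268 to 0.0372 in *Srrm4*. *Srrm4os*, an RNA named for the strand opposite *Srrm4*, had 1 read in control 1 (FPKM 0.0199) and was listed at 0 in the other 3 samples.

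The 20 hnRNP genes all passed the filter and had a median log2 fold change of -0.04, with a range from -0.47 to 0.13; 7 had positive and 13 negative values, and 0 passed the test. The Foxa1/2cKO pair stood above the controls in 4 of the 20 (20%, against 18.9% of all genes) and below them in 9 (45%, against 17.8%). The widest difference was in the A/B type. *Hnrnpa1* (chr15:103240432-103246692, plus strand) encodes a repressor that binds exonic and intronic silencers and counters SR proteins. Its FPKM was 11.4 and 13.0 in the controls against 8.75 and 8.27 in Foxa1/2cKO, from 373, 388, 207 and 201 reads. The Foxa1/2cKO pair stood below the controls, with means of 12.2 ± 1.18 (SD, n = 2) and 8.51 ± 0.341 (SD, n = 2). This gave a log2 fold change of -0.47 (SE 0.11, 95% interval -0.76 to -0.18), with an unadjusted p of 0.00962 and an adjusted p = 0.863 from limma. Over left-out fits the value ran from -0.56 to -0.38. The study names *Hnrnpa1* as decreased, from another test on these same samples, so that its direction here is not independent evidence.

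*Hnrnpa1* has many near-identical copies, which makes its level uncertain. Of the 50-base stretches of its longest protein-coding transcript, 46.4% are held by 19 other annotated genes, 18 of them pseudogenes. To show how sequence sets what can be counted, the coding stretch shared with the most genes (bases 455 to 504, held by 9 others) is printed 5′ to 3′.
Shared: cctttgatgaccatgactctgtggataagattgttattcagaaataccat
Reads from such a stretch can be placed in several genes. *Hnrnpa3*, at 15.4 and 16.1 in the controls against 15.3 and 14.3 in Foxa1/2cKO, is held in 28.2% of its stretches by 46 other genes, 41 of them pseudogenes.

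*Hnrnpa2b1* (chr6:51460932-51469894, minus strand), the most abundant member and a reader of RNA sorting motifs, had FPKM values of 461 and 463 in the controls against 381 and 405 in Foxa1/2cKO. The means were 462 ± 1.36 (SD, n = 2) and 393 ± 16.8 (SD, n = 2). A fitted log2 fold change of -0.23 (SE 0.09, unadjusted p of 0.0501 from limma) resulted, which ran from -0.28 to -0.19 over left-out fits. It rested on 9881 to 16563 reads a sample, far more than *Hnrnpa1*. *Hnrnpa0*, of the same A/B group, was at 212 and 219 in the controls and at 224 and 235 in Foxa1/2cKO, where both samples were higher, which gave a fitted log2 fold change of 0.09 (SE 0.08) that was 0.058 without Foxa1/2cKO 2. The members of the A/B group thus had fitted values on both sides of 0. The ratio of *Hnrnpa1* to *Hnrnpa2b1*, chosen after the values were seen, was 0.0247 and 0.0282 in the controls against 0.0230 and 0.0204 in Foxa1/2cKO.

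The related D group also had values on both sides of 0. *Hnrnpdl*, which regulates its own messenger RNA through alternative splicing, had the largest positive value of the family, at 118 and 109 in the controls against 125 and 124 in Foxa1/2cKO. On the log2 scale the fitted fold change was 0.13 (SE 0.09, 95% interval -0.10 to 0.36), and 0.076 without control 2. *Hnrnpd* (AUF1), which binds AU-rich elements and promotes RNA decay, was at 58.8 and 60.5 in the controls and at 57.9 and 48.6 in Foxa1/2cKO. For neither gene did the groups overlap, and they lay in opposite orders. The ratio of *Hnrnpd* to *Hnrnpdl*, chosen after the values were seen, was 0.499 and 0.554 in the controls against 0.464 and 0.392 in Foxa1/2cKO. *Hnrnpab* was at 321 and 334 in the controls and at 339 and 341 in Foxa1/2cKO, which gave a fitted log2 fold change of 0.05 (SE 0.08, 95% interval -0.17 to 0.27) that was 0.023 without control 1 and 0.080 without control 2. Of its 50-base stretches, 29.0% are shared with other genes, mostly *Phykpl*.

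*Hnrnpu* (SAF-A), a scaffold protein that ties RNA to chromatin, was at 357 and 361 in the controls and at 369 and 336 in Foxa1/2cKO. On the log2 scale the fitted fold change was -0.03 (SE 0.09, 95% interval -0.27 to 0.22), and the groups overlapped. The relative *Hnrnpul1* was at 145 and 146 in the controls and at 147 and 139 in Foxa1/2cKO, which gave a fitted log2 fold change of -0.02 (SE 0.08, 95% interval -0.24 to 0.19). *Hnrnpul2* was at 80.0 and 84.1 in the controls and at 70.6 and 81.0 in Foxa1/2cKO. In the text of the study, *Hnrnpab*, *Hnrnpa2b1*, *Hnrnpu* and *Hnrnpul1* are named for exon usage, which was not analysed here. Their values here are for whole genes.

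*Hnrnpc*, which binds uridine-rich tracts and masks cryptic exons, was at 141 and 138 in the controls and at 143 and 152 in Foxa1/2cKO, both higher, which gave a fitted log2 fold change of 0.08 (SE 0.09) that was 0.029 without Foxa1/2cKO 2 and 0.12 without Foxa1/2cKO 1. In the H/F group, whose proteins bind G-rich tracts, the levels per length ran from *Hnrnph1* down to *Hnrnph3*. *Hnrnph1* was at 283 and 271 in the controls and at 269 and 289 in Foxa1/2cKO. *Hnrnph3* was at 24.1 and 26.4 in the controls and at 18.8 and 22.8 in Foxa1/2cKO, both lower. The fitted log2 fold change of -0.27 (SE 0.13, 95% interval -0.60 to 0.06) ran from -0.40 to -0.14 over left-out fits. *Hnrnph2* was at 35.2 and 36.3 in the controls and at 34.0 and 33.4 in Foxa1/2cKO. *Hnrnpf* was at 61.6 and 60.9 in the controls and at 59.1 and 68.0 in Foxa1/2cKO, with 67.3% of its stretches held by 11 other genes. *Hnrnph3* was thus the member of the group with the widest gap, and the ratio of *Hnrnph1* to *Hnrnph3*, chosen after the values were seen, was 11.7 and 10.3 in the controls against 14.3 and 12.7 in Foxa1/2cKO.

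Of the other hnRNP genes, *Hnrnpll* is known in T cells, where the protein drives the exon skipping of *Ptprc* (CD45) on activation. Its FPKM was 44.6 and 42.9 in the controls against 43.7 and 45.4 in Foxa1/2cKO, so the groups overlapped. Its paralogue *Hnrnpl* was at 306 and 301 in the controls and at 278 and 329.5 in Foxa1/2cKO, where the 2 Foxa1/2cKO samples stood on either side of the controls. *Hnrnpm*, a regulator of exon skipping, was at 213 and 215 in the controls and at 197 and 195 in Foxa1/2cKO, both lower and close to each other. *Hnrnpk*, which binds C-rich RNA and DNA, was at 235 and 237 in the controls and at 221 and 234 in Foxa1/2cKO. *Hnrnpr* was at 19.3 and 19.4 in the controls and at 19.0 and 17.5 in Foxa1/2cKO.

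The 7 kinase genes had a median log2 fold change of 0.10, with a range from -0.14 to 0.35; 4 had positive and 3 negative values, and 0 passed the test. The median was -0.13 without Foxa1/2cKO 1, 0.032 without Foxa1/2cKO 2 and -0.0078 without control 2. The Foxa1/2cKO pair stood above the controls in *Clk1* and *Clk4* (28.6%, against 18.9% of all genes) and below them in *Clk2* (14.3%, against 17.8%). *Clk4* (chr11:51261730-51281766, plus strand) had FPKM values of 43.6 and 44.1 in the controls against 51.5 and 61.1 in Foxa1/2cKO. The means were 43.9 ± 0.339 (SD, n = 2) and 56.3 ± 6.82 (SD, n = 2). This gave a log2 fold change of 0.35 (SE 0.11, 95% interval 0.05 to 0.64), with an unadjusted p of 0.0289 and an adjusted p = 0.863 from limma. It was 0.23 without Foxa1/2cKO 2 and 0.47 without Foxa1/2cKO 1.

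*Clk1* (chr1:58410189-58424066, minus strand), the closest paralogue of *Clk4*, was at 100.6 and 99.1 in the controls and at 108 and 141 in Foxa1/2cKO. The means were 99.8 ± 1.04 (SD, n = 2) and 124.5 ± 23.2 (SD, n = 2), which gave a fitted log2 fold change of 0.30 (SE 0.15, 95% interval -0.08 to 0.69). Both genes were highest in Foxa1/2cKO 2, and for *Clk1* the log2 fold change was 0.11 without that sample. The ratio of *Clk1* to *Clk4*, chosen after the values were seen, was 2.30 and 2.25 in the controls against 2.10 and 2.31 in Foxa1/2cKO, and the groups overlapped.

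*Clk3* (chr9:57750624-57765860, minus strand) was the most abundant kinase per length, at 131 and 126 in the controls against 114 and 167 in Foxa1/2cKO. Here Foxa1/2cKO 1 was the lowest of the 4 samples and Foxa1/2cKO 2 the highest. On the log2 scale the fitted fold change was 0.10 (SE 0.20, 95% interval -0.42 to 0.61), and it was -0.18 without Foxa1/2cKO 2. *Clk2* (chr3:89164795-89176921, plus strand) was at 16.8 and 15.5 in the controls and at 14.4 and 14.7 in Foxa1/2cKO, which gave a fitted log2 fold change of -0.14 (SE 0.09, 95% interval -0.38 to 0.10) that was -0.088 without control 1. The ratio of *Clk4* to *Clk2*, chosen after the values were seen, was 2.60 and 2.84 in the controls against 3.57 and 4.16 in Foxa1/2cKO. That of *Clk1* to *Clk2*, chosen in the same way, was 5.99 and 6.38 in the controls against 7.50 and 9.60 in Foxa1/2cKO. The Clk genes together reached 292 and 285 in the controls, against 288 and 384 in Foxa1/2cKO, so that the sum of Foxa1/2cKO 1 lay between the controls.

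*Srpk1*, the broadly expressed SRPK, was at 63.6 and 62.4 in the controls and at 64.5 and 56.5 in Foxa1/2cKO, which gave a fitted log2 fold change of -0.06 (SE 0.10). *Srpk2* was at 14.0 and 16.1 in the controls and at 14.4 and 13.5 in Foxa1/2cKO, which gave a fitted log2 fold change of -0.10 (SE 0.11) that was -0.0078 without control 2 and -0.20 without control 1. *Srpk3*, a kinase of muscle, was at 1.36 and 0.675 in the controls and at 1.75 and 0.781 in Foxa1/2cKO, from 17 to 40 reads a sample. For all 3 Srpk genes the groups overlapped (the left-out values of *Srpk1* and *Srpk3* fall on both sides of 0), and the log2 fold change of *Srpk3* was 0.15 (SE 0.31).

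Of 14 ratios between like members, all chosen after the values were seen, Foxa1/2cKO stood above the controls in 3, below them in 5 and overlapped them in 6. No share was worked out for ratios of other genes, so these counts have no reference. Besides those given, *Srsf3* to *Srsf7* stood below, and *Hnrnpl* to *Hnrnpll*, *Srpk1* to *Srpk2*, *Srsf1* to *Srsf9*, *Hnrnpu* to *Hnrnpul1* and *Hnrnpf* to *Hnrnph1* overlapped.

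**Figure D4:**
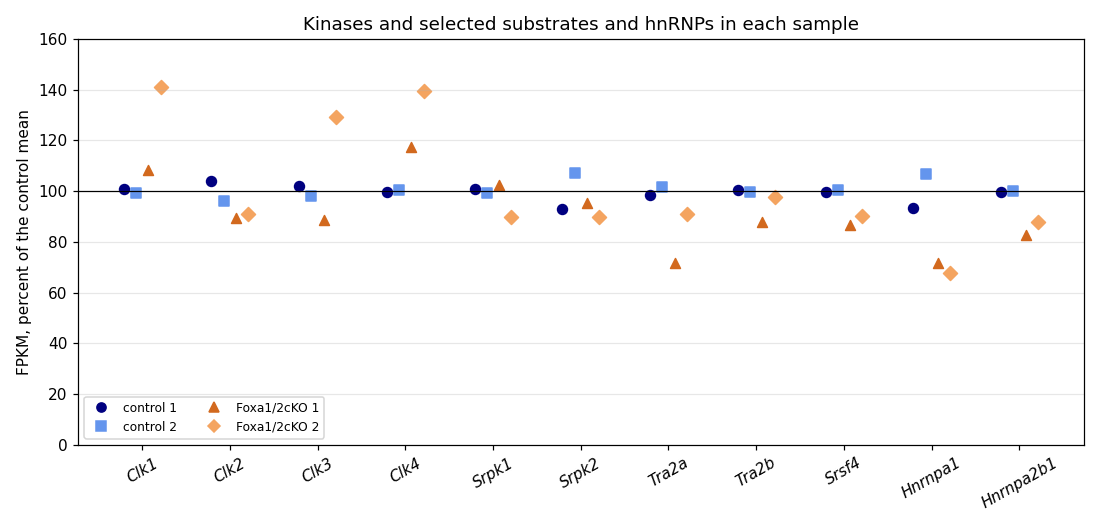
FPKM of 11 members in each sample as a percent of the control mean of that gene (vertical axis, from 0), with the line at 100; each point is 1 sample, and the genes were chosen after their values were seen. *Clk1* and *Clk4* lie above the controls in both Foxa1/2cKO samples, *Tra2a*, *Srsf4*, *Hnrnpa1* and *Hnrnpa2b1* below them, and *Clk3* on either side.

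Since Foxa1 and Foxa2 are forkhead transcription factors, member promoters (250 bases before to 50 after the start site; RefSeq, mm10) were searched on both strands for TGTTTAC and TATTTAC, which are forkhead core motifs. TGTTTAC was found in 3.65% of 32851 promoters and in 1 of 56 member promoters, which cover 41 members. That promoter belongs to *Srsf6*, where the match starts 188 bases before the start site. It is printed with its surroundings (chr2:162931280-162931366, plus strand), the motif in capitals.
Srsf6: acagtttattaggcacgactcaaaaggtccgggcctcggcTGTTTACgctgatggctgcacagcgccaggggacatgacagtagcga
TATTTAC was found in 3.04% of all promoters and in 0 of 56 member promoters. The FPKM values of *Srsf6* given above did not pass the test, and a match of letters is a description of the window only.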

How the data were processed

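RNA of FACS-sorted CD69+DP thymocytes from 2 control and 2 Foxa1/2cKO samples was sequenced. The authors aligned the reads to mm10 (TopHat, with Picard, per the submitters' processing notes) and counted them with HTSeq against RefSeq genes, and they tested with DESeq2. Per gene, the authors deposited FPKM, and the tool that made them is not given in the sources used here. From the steps between values, whole reads could be recovered in 100% of the 16069 genes above 0, up to a common factor (raised to fit a whole length in 3.67% of genes over 50 reads). Recovered reads ranged from 10393356 to 14477908 a sample. Limits from 3 reads cover counting error only.

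limma 3.58.1 (R 4.3.3) was fitted on log2(FPKM + 1) with a mean-variance trend, on genes that reached an FPKM of 1 in 2 or more samples, with Benjamini-Hochberg adjustment over all 10776 genes at 0.05 (2 residual and 2.69 prior degrees of freedom). The pseudocount makes fold changes understate those of low genes. The pipeline was tested on simulated data. Symbols were matched to GENCODE M21, and 50-base stretches were compared with all annotated transcripts on either strand. Strand in counting is not given in the sources used here. Scripts ran in Python 3.11.15 with numpy 2.4.6, pandas 2.3.3 and matplotlib 3.10.9.

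The members and lists were chosen with earlier results of these data known. Genes named with a test were, in each family, those with an unadjusted p under 0.05, the 3 with the largest and the 3 with the smallest log2 fold change, the 3 with the highest mean FPKM and those the study's text names. Other members are given without a test. The alternatives were a pseudocount of 0.1, no filter, an FPKM of at least 5, upper-quartile scaling, no trend, a replicate block, limma-voom on recovered reads and leaving out each sample. A loess correction for gene length was added after seeing the data. Exon usage was not analysed here.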

Additional observations from a re-analysis of the deposited data

How the results depend on the processing

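With 2 samples a group, each left-out fit leaves a lone sample that is assumed to vary like the other group. The genes called over all genes numbered 1, and 0 with a pseudocount of 0.1, no filter, an FPKM of at least 5, upper-quartile scaling or limma-voom, while the range with a sample left out was 0 to 2559, the highest without Foxa1/2cKO 1 (19 without Foxa1/2cKO 2, 0 without either control). Members called numbered 0 to 8 with a sample left out, 8 of them without Foxa1/2cKO 1, and 0 in every other setting. Members with an unadjusted p under 0.05 numbered 2, and 3 with a pseudocount of 0.1 or an FPKM of at least 5, and 6 with upper-quartile scaling. The number also moved when a sample was left out. The share over all genes of 4.55% is for the main fit only, so these other counts have no such share beside them.

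Members with positive values numbered 12 to 17 and with negative values 25 to 30 with a sample left out. Upper-quartile scaling gave 14 and 28. The median log2 fold change ranged with a sample left out from -0.11 to -0.032 in the SR family, from -0.05 to -0.035 in the hnRNP family and from -0.13 to 0.125 in the kinase family, whose median was -0.13 without Foxa1/2cKO 1. The hnRNP median was -0.060 with upper-quartile scaling, and the kinase median 0.018 at an FPKM of at least 5. The median of the other regulators was 0.00 and became -0.018 with upper-quartile scaling, 0.021 with the loess correction, and ranged from -0.034 to 0.0044 with a sample left out.

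Of 25 members named with a test, 16 kept the direction of their log2 fold change in every setting. Of 298 values, 11 reversed. *Srrm2* was -0.026 with the loess correction. Over left-out fits *Srrm2* ran from -0.019 (without control 2) to 0.068, and *Srpk3* from -0.16 (without Foxa1/2cKO 1; -0.09 without control 2) to 0.47. The others reversed without Foxa1/2cKO 2, the first value given: *Clk3* ran from -0.18 to 0.37, *Hnrnpu* from 0.041 to -0.095, *Hnrnpul1* from 0.018 to -0.067, *Srpk1* from 0.032 to -0.16, *Srsf11* from -0.054 to 0.14, *Srsf2* from 0.018 to -0.20 and *Srsf7* from -0.031 to 0.26. Without Foxa1/2cKO 1, *Clk1*, *Clk3*, *Clk4*, *Hnrnpa1*, *Hnrnpa2b1* and *Srsf7* passed the test. The causes were not tested.

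The labels of same-numbered samples share only a number. The correlation of their deviations was -0.0587 over 10776 genes. The B cell and myeloid marker sums were nevertheless higher in sample 1 than in sample 2 of both genotypes. The study states that each sort used 2 mice of each genotype. Whether same-numbered samples shared a sort or batch was not tested. With the replicate number as a block, 1 gene was called over all genes and 0 members, 2 members had an unadjusted p under 0.05, and 378 of all genes did, against 490 without the block.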

Other observations

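The other splicing regulators, 43 genes that act with SR proteins or hnRNPs or belong to them under other symbols, all passed the filter. Of the 43, 22 had positive and 21 negative log2 fold changes, with a median of 0.00, and 0 had an adjusted p under 0.05 from limma. The Foxa1/2cKO pair stood above the controls in 8 (18.6%, where 18.9% of all genes tested did so) and below them in 15 (34.9%, where 17.8% did so), and 1 had an unadjusted p under 0.05, *Prpf4b*. *Prpf4b*, a kinase of the spliceosome that the study also names, was at an FPKM of 59.6 and 55.0 in the controls and at 69.8 and 74.5 in Foxa1/2cKO. A fitted log2 fold change of 0.33 (SE 0.09, limma's adjusted p = 0.863) resulted, which ran from 0.27 to 0.39 over left-out fits. Of the 6 further kinases in this list, *Prpf4b* included, 5 had positive values, with a median of 0.13 that was 0.026 without Foxa1/2cKO 2 and 0.21 without Foxa1/2cKO 1.

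The genes singled out from here on were chosen after their values were seen. *Son*, a large RS protein at the core of nuclear speckles, was at 138 and 131 in the controls and at 152 and 164 in Foxa1/2cKO, which gave a fitted log2 fold change of 0.23 (SE 0.09). *U2af1*, the small subunit of the factor that reads the 3′ splice site, was at 80.9 and 79.9 in the controls and at 72.2 and 73.5 in Foxa1/2cKO. In both of these genes the groups did not overlap. The groups overlapped in all 6 phosphatase genes. *Tnpo3*, the carrier that imports phosphorylated SR proteins, was at 39.2 and 39.8 in the controls and at 38.7 and 37.7 in Foxa1/2cKO.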
